A study of Mus musculus with 30 samples.

Results

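The genes described here are the nuclear genes of the oxidative phosphorylation system, followed in endothelial cells taken from the brains of mice of 5 ages. Single genes entered by their symbol alone, but the gene family was chosen with earlier results of these data known. Symbols of the Nduf, Sdh, Uqcr, Cyc1, Cox4 to Cox8 and Atp5 series matched 95 genes, and 11 pseudogenes and similar entries were left out. The remaining 84 members, of 48795 genes counted in all, comprised 35 genes of complex I, 4 of complex II, 9 of complex III, 19 of complex IV (Ndufa4, once counted with complex I, included) and 17 of complex V. Of these, 81 passed a filter on low counts that left 16844 genes of all kinds to be tested. Cox6a2, Cox7b2 and Cox8c, isoforms known from muscle and testis, did not pass it. Cox8c had no count in any library, which allows a level of up to 0.0594 to 0.124 CPM (counts scaled to a common library size) depending on the library's depth, for counting error only, since reads copied by PCR are not independent molecules. Cox7a2l, a factor of supercomplex assembly, and Atp5s, a coupling factor, match the symbols but are not subunits.

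The animals were wild-type, untreated mice, male and female, aged 2, 6, 12, 18 and 24 months, and the cells were primary brain endothelial cells, the lining of the cerebral vessels. Each age was represented by 6 RNA-seq libraries, 3 from males and 3 from females, giving 30 libraries, which the design text calls biological replicates. The sources used here name neither the mouse strain nor how the cells were isolated, and do not say whether a library came from 1 animal or a pool, so the p-values measure the spread between these libraries. Every contrast against 2 months uses the same 6 control libraries.

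Oxidative phosphorylation takes place at the inner mitochondrial membrane. Complex I oxidises NADH and complex II succinate, both pass electrons through ubiquinone to complex III, and cytochrome c carries them on to complex IV, which reduces oxygen. Complexes I, III and IV pump protons, and complex V, the ATP synthase, uses the gradient to make ATP. Most subunits are encoded in the nucleus and imported, while a small set is encoded by mitochondrial DNA. Brain endothelial cells are known to make much of their ATP by glycolysis, and their mitochondria are also discussed in connection with transport across the blood-brain barrier.

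Nuclear respiratory genes are known targets of the transcription factors NRF1, GABPA (NRF2), YY1 and ERRA, and their promoters were therefore searched for 1 letter pattern of each. RefSeq promoter windows on GRCm38.p6, running from 250 bases before to 50 bases after the annotated start, were found for 66 of the 84 members, 5 of which had more than 1 window. The patterns were GCGC, any base and then TGCGC for NRF1, CCGGAAG for GABPA, AANATGGC for YY1 and TNAAGGTCA for ERRA, each on both strands, and where matches overlapped each was counted. The NRF1 pattern was found in 17 members (25.8%), against 4.60% of all 32851 windows and 8.81% of the windows of tested genes. GABPA's pattern was found in 16 members (24.2%, against 8.86% and 15.6%) and that of YY1 also in 16 (24.2%, against 6.05% and 7.50%). ERRA's was found in 3 members (4.55%, against 1.28% and 0.808%). The shares of members count genes with a match in any window, while the shares set beside them count windows. Of the 71 windows of members, 25.4% held the NRF1, 22.5% the GABPA, 22.5% the YY1 and 4.23% the ERRA pattern. In all, 42 members held at least 1 of the 4 patterns and 9 held more than 1.

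The 250 bases before the start are printed for 4 members that recur in the results, from complexes I, II, IV and V, because they show these patterns in several arrangements. All 4 genes lie on the minus strand, and the sequences read 5′ to 3′ towards the start, so the last letter is position -1. Capitals mark the pattern matches. Ndufs8 (chr19:3912775-3913024) has a YY1 match at -165 to -158. Sdhd (chr9:50603850-50604099) has NRF1 at -79 to -70 and GABPA at -46 to -40. Cox6a1 (chr5:115348959-115349208) has NRF1 at -162 to -153 and again at -117 to -108, and GABPA at -16 to -10. Atp5e (chr2:174464102-174464351) has GABPA at -102 to -96. The searched windows of Ndufs8 and Sdhd also hold a GABPA and an ERRA match, in that order, beyond the printed bases.
Ndufs8: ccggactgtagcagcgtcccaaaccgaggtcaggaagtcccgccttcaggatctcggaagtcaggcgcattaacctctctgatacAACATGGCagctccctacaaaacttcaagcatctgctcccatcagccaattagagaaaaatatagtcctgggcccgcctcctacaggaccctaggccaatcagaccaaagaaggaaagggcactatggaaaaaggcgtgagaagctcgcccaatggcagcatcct
Sdhd: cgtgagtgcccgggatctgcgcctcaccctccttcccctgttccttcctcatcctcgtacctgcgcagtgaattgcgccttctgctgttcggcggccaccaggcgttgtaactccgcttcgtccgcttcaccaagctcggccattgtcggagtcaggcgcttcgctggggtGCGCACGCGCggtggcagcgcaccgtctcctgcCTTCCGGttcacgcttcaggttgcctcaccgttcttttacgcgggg
Cox6a1: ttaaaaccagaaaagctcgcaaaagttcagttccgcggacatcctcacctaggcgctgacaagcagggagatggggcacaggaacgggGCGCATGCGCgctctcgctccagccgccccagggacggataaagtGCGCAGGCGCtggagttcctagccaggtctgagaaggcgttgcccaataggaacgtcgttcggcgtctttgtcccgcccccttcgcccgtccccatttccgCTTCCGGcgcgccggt
Atp5e: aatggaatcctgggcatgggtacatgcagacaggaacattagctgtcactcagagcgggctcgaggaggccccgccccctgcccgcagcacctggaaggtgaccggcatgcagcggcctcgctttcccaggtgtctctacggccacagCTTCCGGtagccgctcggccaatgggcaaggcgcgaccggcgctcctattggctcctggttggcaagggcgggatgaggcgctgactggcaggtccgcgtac
A match is a description of letters and was not tested as a binding site.

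Counts assigned to genes ranged from 24140980 to 50464366 per library. Replicates of 1 age differed by far more than sampling noise in all 75 pairs (a chi-square of 16.0 to 198 for each degree of freedom), so none was a copy of another. All 7 endothelial markers were detected at every age, with summed levels of 14252 to 18591 CPM. Neuronal markers had median sums of 3.27 to 5.30 CPM. Those of some other cells were higher, with median sums of 281 to 515 CPM for astrocyte and 115 to 317 for oligodendrocyte markers. Fibroblast markers had 293 to 406 CPM, and those of microglia and macrophages 77.5 to 158. Single libraries reached 1075 CPM at 2 months for astrocyte, 1901 at 12 months for oligodendrocyte and 769 at 2 months for microglia and macrophage markers. Fewer cells of a type and less RNA per cell cannot be told apart in bulk RNA.

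With both sexes together, the members as a whole stood highest at 6 and 12 months, lowest at 18 months and in between at 24 months. The mean over all members of log2(CPM + 1) was 6.39 ± 0.134 (SD, n = 6 libraries) in the youngest animals, 6.64 ± 0.314 at 6, 6.56 ± 0.285 at 12, 6.12 ± 0.173 at 18 and 6.33 ± 0.130 at 24 months. Libraries at 6 and 12 months were also the most spread, and their ranges reached into those of 2 and 24 months. The sexes differed in where the mean was highest. In females it was 6.37 ± 0.11 (SD, n = 3) at 2, 6.87 ± 0.221 at 6 and 6.47 ± 0.0562 at 12 months. In males it was 6.42 ± 0.176, 6.41 ± 0.206 and 6.64 ± 0.422 at these ages. The male mean at 12 months leaned on library 1, since libraries 1, 2 and 3 scored 7.08, 6.25 and 6.59. Both sexes were lowest at 18 months, with 6.01 ± 0.167 in females and 6.23 ± 0.103 in males. As a share of all gene counts the members took 1.12%, 1.33%, 1.24%, 0.935% and 1.07% in order of age. Of the 81 tested members, 63 had their highest mean at 6 months and their lowest at 18 months, an order seen in 10.8% of all tested genes. This order held for 28 of 35 members of complex I, 3 of 4 of complex II, 6 of 9 of complex III, 12 of 16 of complex IV and 14 of 17 of complex V. It was thus shared by most tested members of each complex.

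**Figure D1:**
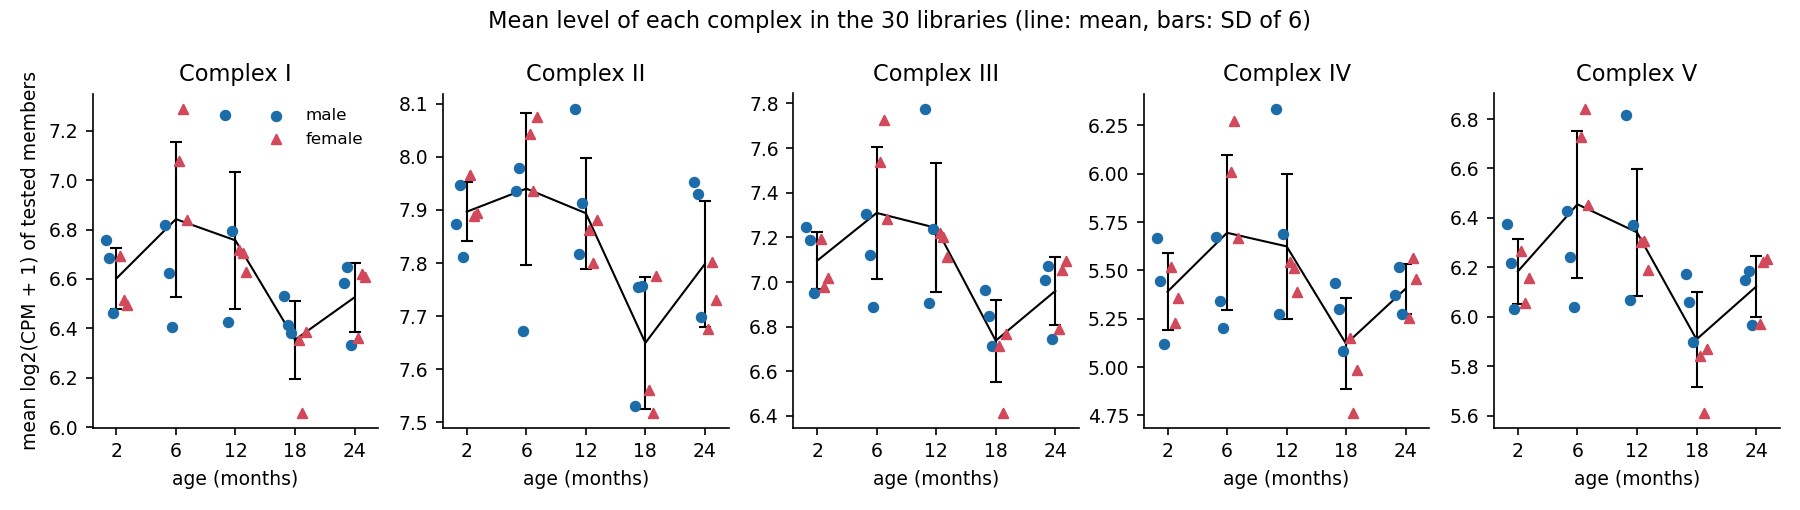
Mean log2(CPM + 1) over the tested members of each complex (vertical axis, a scale of its own in each panel and not from 0) by age in months (horizontal axis). Each point is 1 library, circles for males and triangles for females, and the line and bars give the mean and SD of 6 libraries. In every panel the 18-month mean is the lowest and the 6-month mean the highest, and libraries of neighbouring ages overlap, except those of 12 and 18 months in complex II.

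The same order appeared within each complex when it was scored alone. Complex I scored 6.84 ± 0.313 (SD, n = 6) at 6 months and 6.35 ± 0.157 at 18 months. Complex IV had the widest spread, with 5.69 ± 0.402 and 5.12 ± 0.235 at these ages, and complex II the narrowest range of age means, from 7.65 ± 0.124 at 18 months to 7.94 ± 0.143 at 6 months. Complex III went from 7.31 ± 0.297 to 6.74 ± 0.184 and complex V from 6.46 ± 0.297 to 5.91 ± 0.193.

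In females the median change was larger from 2 to 6 than from 12 to 18 months, as given with the sexes further on. Over both sexes together, the largest change between neighbouring ages was the step from 12 to 18 months. With edgeR's quasi-likelihood test and Benjamini-Hochberg adjustment over all 16844 genes, 49 of 81 members were lower at 18 months and 0 were higher (68 lower and 0 higher at an unadjusted p under 0.05), where the background was 6.73% of all genes lower and 6.48% higher. The median log2 change of the members was -0.47, against 0.04 over all genes, and 78 of 81 were below 0. In 13 members all 6 libraries of 18 months lay below all 6 of 12 months, a pattern found in 1.91% of all genes. By complex the members lower at 18 months were 20 of 35 in complex I, 3 of 4 in complex II, 8 of 9 in complex III, 9 of 16 in complex IV and 9 of 17 in complex V, with median log2 changes of -0.45, -0.30, -0.51, -0.57 and -0.49. The count rested in part on single libraries: it was 16 without 12-month library 1 (male), 24 without 18-month library 5 (female), and up to 63 when another library was left out. It was 0 in males alone, with 3 libraries an age, and 43 in females alone. The shares of all genes called in these fits are not given here. In a joint fit with 1 mean for each sex and age, 1.1% of all genes were lower in males and 4.83% in females. That fit called 0 genes for a difference between the sexes in this step. The count of members was also 0 when the share of counts on longer genes, or of reads outside genes, entered the fit as a covariate. These values are given with gene length further on.

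**Figure D2:**
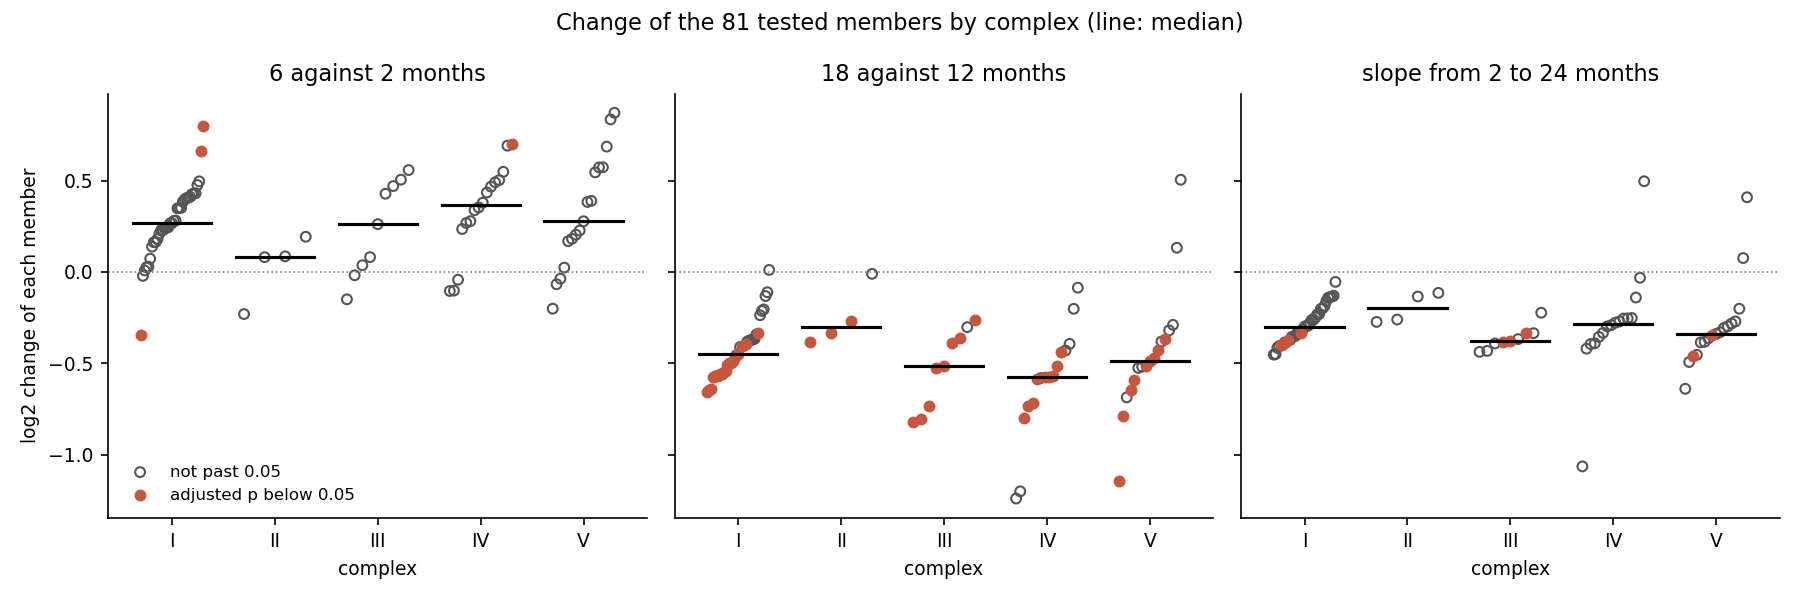
Log2 change of each of the 81 tested members (points, by complex on the horizontal axis) from 2 to 6 months, from 12 to 18 months and over the slope from 2 to 24 months. Filled points passed an adjusted p of 0.05 and lines are medians. From 12 to 18 months 49 points are filled, all below 0, and in the slope 9.

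The earlier and later steps held few calls with both sexes together. Females had more calls from 2 to 6 and from 6 to 12 months, given with the sexes further on. From 2 to 6 months 3 members rose (background 2.9%) and 1 fell (background 4.11%), with a median log2 change of 0.28 against -0.03 over all genes and 28 members higher at an unadjusted p under 0.05. The number that rose was 23 without 12-month library 1 and 10 without 6-month library 3 (male), and 7 without 2-month library 1 (male) or 6-month library 2 (male). It was 6 and 5 without 18-month libraries 1 (male) and 5, 1 without 2-month library 5 (female) or 6-month library 6 (female), and 0 without 2-month library 3 (male) or 6-month library 4 or 5 (female). The median was -0.12 with the share of longer genes as a covariate. It was -0.060 without the 4 libraries with the smallest such share. These include all female libraries of 6 months, so that fit had only males at 6 months. The 1 fall was lost without any of 2-month libraries 2, 3, 4 and 6, 6-month libraries 4 and 5, and 12-month libraries 3 and 6. From 6 to 12 months edgeR called 0 members in either direction (0 at an unadjusted p under 0.05, background 0.677% higher and 1.21% lower). From 18 to 24 months it called 0 (background 0.511% higher and 0.748% lower), with 17 higher at an unadjusted p under 0.05 and a median of 0.20, and 1 was called without 18-month library 1 or 2 (both male). 

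Against 2 months, 10 members were lower at 18 months (background 6.58%) and 1, Uqcrc1, at 24 months (background 2.11%). In 12 members all 6 libraries of 18 months lay below all 6 of 2 months (background 3.78%). The 10 included Atp5a1, Atp5b, Atp5d, Cyc1, Ndufa8, Ndufa9, Uqcrc1 and Uqcrfs1. Their number was 4 without 18-month library 5, 6 without 2-month library 2 (male) or 18-month library 4 (female), and 19 without 6-month library 3. It was 30 with the correction for gene length, 35 without the 4 libraries with the smallest share of longer genes, 0 with reads outside genes as a covariate, 0 in males alone and 27 in females alone. The 1 call at 24 months became 8 with the length correction, 6 with the share of longer genes as a covariate, 2 without the 4 libraries, 0 with reads outside genes, 0 in males and 4 in females. From 2 to 12 months 0 were called (background 1.17% higher and 1.74% lower, with 9 higher and 1 lower at an unadjusted p under 0.05).

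Across all 30 libraries, a straight line over age gave 9 members falling (background 5.22%) and 0 rising (background 5.72%, with 0 members rising at an unadjusted p under 0.05, and 0 called rising by DESeq2 or limma-voom). The change over the 22 months had a median of -0.32 on the log2 scale, against 0.03 over all genes, and 78 of 81 members were below 0. The 9 included Atp5b, Atp5a1, Uqcrc1, Uqcrfs1, Cyc1, Ndufs8, Ndufa8 and Ndufa9, and 4 belonged to complex I, 3 to complex III and 2 to complex V. In complexes II and IV edgeR called 0, with 2 of 4 and 4 of 16 members falling at an unadjusted p under 0.05. The 9 falling members became 16 with DESeq2, 30 with a correction for gene length, 0 with the share of reads outside genes as a covariate, 0 in males alone, 2 in females alone, and 17, 2 and 5 without the 2-, 18- and 6-month libraries. Left out singly, libraries gave 7 to 15 falling members, with 14 without 6-month library 3 and 15 without 12-month library 1. Because the order of the ages was not a straight line, the departure of the age means from the line was also tested, and 39 of 81 members departed (background 17.7%): 15 in complex I, 1 in complex II, 5 in complex III, 9 in complex IV and 9 in complex V. This count was 11 without the 3 female libraries of 6 months and 12-month library 1, the 4 libraries with the smallest share of counts on longer genes.

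In complex I, the core subunits of the matrix arm carry the flavin and the iron-sulphur clusters that lead electrons from NADH to ubiquinone. Ndufs8 (chr19:3908863-3912774, minus strand, GRCm38), which carries a pair of iron-sulphur clusters and whose promoter is printed above, had medians (with the lowest and highest library of each age) of 131 (106 to 143) CPM at 2, 138 (101 to 186) at 6, 125 (107 to 174) at 12, 101 (78.0 to 114) at 18 and 113 (97.8 to 124) at 24 months. All ages overlapped, and the highest values belonged to libraries of 6 and 12 months. Its slope of -0.39 ± 0.13 (SE, adjusted p = 0.0454) held in only 10 of the 30 fits that left out 1 library.

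Ndufs7, the subunit with the last cluster before ubiquinone, fell from 12 to 18 months with a log2 change of -0.51 ± 0.12 (SE, adjusted p = 0.00545), with no overlap of the libraries of these ages: the highest at 18 months, 159 CPM, was below the lowest at 12 months, 168 CPM. Ndufv1, which binds NADH, was not called in any contrast between ages, and its median was 194 CPM at 2 months and 166 CPM at 18 months. Ndufs1 (chr1:63143596-63176833), the largest subunit, did not follow the general order. Its medians were 96.3 (91.3 to 106) CPM at 2, 80.4 (64.1 to 93.0) at 6, 83.5 (72.1 to 100.2) at 12, 83.0 (80.7 to 97.3) at 18 and 86.6 (83.3 to 97.0) at 24 months. The 2-month median was highest and the lowest library was 1 of 6 months, with overlap between the ages. It was the only member that fell from 2 to 6 months, with a log2 change of -0.34 ± 0.10 (SE, adjusted p = 0.0356), and of the 7 core matrix-arm members, 3 were lower, Ndufs7 and Ndufs8 among them, at 18 than at 12 months.

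Among the accessory subunits of complex I, Ndufa9 (chr6:126821721-126849136), which sits beside the ubiquinone site, had medians of 142 (125 to 158) CPM at 2, 143 (119 to 167) at 6, 137 (113 to 160.3) at 12, 104 (85.8 to 112) at 18 and 124 (103 to 138) at 24 months. All 6 libraries of 18 months lay below all 6 of 12 and of 2 months. It fell over age with a log2 change of -0.37 ± 0.10 (SE, adjusted p = 0.0161) and from 12 to 18 months with a log2 change of -0.40 ± 0.10 (SE, adjusted p = 0.00862). Ndufa8, a subunit on the intermembrane side, fell over age with a log2 change of -0.40 ± 0.13 (SE, adjusted p = 0.0432), but this call held in only 11 of the 30 fits without 1 library. Ndufa7, a small subunit of the matrix arm, had medians of 256 (215 to 312) CPM at 2, 354 (252 to 539.5) at 6, 335 (241 to 477) at 12, 213 (174 to 284) at 18 and 238 (209 to 299) at 24 months. Its 6-month libraries spread more than those of 2 months and overlapped them. It rose from 2 to 6 months with a log2 change of 0.66 ± 0.19 (SE, adjusted p = 0.0293) and fell from 12 to 18 months with a log2 change of -0.66 ± 0.16 (SE, adjusted p = 0.00854). Ndufb4, a small membrane-arm subunit at a low level, 16.6 CPM per kb of transcript on average, rose from 2 to 6 months with a log2 change of 0.80 ± 0.24 (SE, adjusted p = 0.0388), a call lost in 11 of the 30 fits without 1 library. Of the accessory members, 5 of 9 in the matrix arm and 12 of 19 in the membrane arm were lower at 18 than at 12 months. Ndufb7, on the intermembrane side, fell with a log2 change of -0.56 ± 0.14 (SE, adjusted p = 0.00745) without overlap, while Ndufa3 was not called, with medians of 147 CPM at 12 and 120.0 CPM at 18 months.

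Complex II has 4 subunits, all nuclear, and also serves the tricarboxylic acid cycle. Sdha (chr13:74322254-74350280), the flavoprotein that oxidises succinate, had medians of 520.3 (418 to 533) CPM at 2, 438 (319 to 526) at 6, 458 (377 to 469.8) at 12, 447 (402 to 468) at 18 and 457 (379 to 516) at 24 months. The 2-month median was highest and the 5 ages overlapped throughout. Sdha was not called in any contrast between ages, and was the member of complex II without a call from 12 to 18 months. Sdhb, the iron-sulphur subunit, had medians of 221 (206 to 248) CPM at 2, 246 (187 to 266) at 6, 222 (211 to 326) at 12, 179.6 (162 to 209.7) at 18 and 204 (180.3 to 228) at 24 months. Every 18-month library was below every 12-month library, and it fell in that step with a log2 change of -0.38 ± 0.10 (SE, adjusted p = 0.0129). Sdhd, a membrane anchor, whose promoter is printed above, fell with a log2 change of -0.34 ± 0.10 (SE, adjusted p = 0.0231), with 175 to 242 CPM at 12 months and 127 to 177 CPM at 18 months. The other anchor, Sdhc, was also called lower, and is named because it completes the complex.

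In complex III both core proteins, both redox subunits and 4 of 5 small subunits were lower at 18 than at 12 months. Uqcrc1 (chr9:108936633-108949623), a core protein, had medians of 514 (481 to 569) CPM at 2, 482 (418 to 511) at 6, 439.8 (421 to 506) at 12, 382 (312 to 455) at 18 and 398 (356 to 479.8) at 24 months. Each median up to 18 months was below the one before, and every library of 18 and of 24 months lay below every library of 2 months. Its age slope was -0.38 ± 0.08 (SE, adjusted p = 0.00334), the smallest adjusted p among the members' slopes, and it was the only member called between 24 and 2 months, with a log2 change of -0.35 ± 0.11 (SE, adjusted p = 0.0499), a call lost in 23 of the 30 fits without 1 library. Uqcrfs1, the Rieske iron-sulphur protein, had medians of 106 (101 to 118) CPM at 2, 111 (90.04 to 133) at 6, 103 (87.8 to 139) at 12, 79.9 (71.3 to 96.7) at 18 and 90.5 (73.8 to 103) at 24 months. Its 18-month libraries lay below those of 2 months and overlapped those of 12 months. The slope was -0.38 ± 0.11 (SE, adjusted p = 0.0177). Cyc1, cytochrome c1, which hands electrons to cytochrome c, fell over age with a log2 change of -0.34 ± 0.10 (SE, adjusted p = 0.0220) and from 12 to 18 months with a log2 change of -0.36 ± 0.10 (SE, adjusted p = 0.0125).

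Uqcrq and Uqcr10, small subunits of complex III, had larger log2 changes than its core proteins in the step from 12 to 18 months. Uqcrq, next to the ubiquinone-binding cytochrome b, had medians of 133 (112 to 158) CPM at 2, 157 (111 to 256) at 6, 153 (116 to 245) at 12, 98.0 (67.0 to 113) at 18 and 129 (105 to 145) at 24 months. All 18-month libraries were below all 12-month libraries. It fell with a log2 change of -0.81 ± 0.18 (SE, adjusted p = 0.00339), and Uqcr10, a subunit at the Rieske protein, fell with a log2 change of -0.82 ± 0.21 (SE, adjusted p = 0.0114). Uqcr11 fell with a log2 change of -0.51 ± 0.15 (SE, adjusted p = 0.0251). None of these 3 was called by the slope or between 24 and 2 months.

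Complex IV has subunits present in most tissues and isoforms known for muscle, lung or testis, and the 2 kinds stood far apart in level. Per kb of transcript, Cox6a1 had 605 CPM, the highest of all members, Cox4i1 467, Cox6b1 375, Cox8a 262 and Cox7a2 192. The partner isoforms had far lower levels on this scale, with 0.187 CPM per kb for Cox6a2, 5.70 for Cox4i2, 5.29 for Cox6b2, 4.73 for Cox8b and 10.4 for Cox7a1. Of the common subunits 7 of 11 were lower at 18 than at 12 months, and of the tested isoforms 1 of 4.

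Cox4i1 (chr8:120668222-120674207), the common form of the largest nuclear subunit, had medians of 326 (279.9 to 367) CPM at 2, 418 (294 to 634) at 6, 377 (317 to 620.4) at 12, 249 (169 to 310.0) at 18 and 335 (255 to 361) at 24 months. All 18-month libraries lay below all 12-month libraries, while the 6-month libraries spread across the values of the other ages. It fell from 12 to 18 months with a log2 change of -0.72 ± 0.17 (SE, adjusted p = 0.00617). Cox6a1, whose promoter is printed above, had medians of 329.7 (293 to 364) CPM at 2, 409 (297 to 623) at 6, 343 (292 to 573) at 12, 242 (207 to 319.7) at 18 and 329 (288 to 358) at 24 months. Libraries of 12 and 18 months overlapped, and the fall was -0.57 ± 0.15 (SE, adjusted p = 0.0139). Cox8a, a small membrane subunit, fell with a log2 change of -0.73 ± 0.20 (SE, adjusted p = 0.0161) and Cox6b1, on the intermembrane side, with a log2 change of -0.57 ± 0.17 (SE, adjusted p = 0.0296). Cox7a2 rose from 2 to 6 months with a log2 change of 0.70 ± 0.20 (SE, adjusted p = 0.0345), a call lost in 5 of the 30 fits without 1 library, and fell from 12 to 18 months with a log2 change of -0.58 ± 0.18 (SE, adjusted p = 0.0299).

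Of the isoforms at low level, Cox7a1, the heart and muscle form, had medians of 3.68 (2.26 to 4.94) CPM at 2, 4.75 (3.41 to 7.06) at 6, 4.75 (3.85 to 6.31) at 12, 2.57 (1.97 to 3.80) at 18 and 3.82 (2.76 to 6.42) at 24 months. Every 18-month library was below every 12-month library, and the fall was -0.80 ± 0.24 (SE, adjusted p = 0.0235). Cox4i2 (chr2:152754173-152765037), an isoform known from lung and from pericytes, was 1 of 3 members whose slope was above 0. Its medians were 3.35 (1.36 to 4.77) CPM at 2, 3.73 (1.59 to 5.37) at 6, 3.75 (2.37 to 8.84) at 12, 3.96 (1.89 to 5.50) at 18 and 5.30 (4.22 to 7.35) at 24 months. The 24-month median was highest, and the ranges of all 5 ages overlapped. Its slope of 0.50 ± 0.27 (SE, adjusted p = 0.250) was not called. Summed pericyte markers had median levels of 631, 646, 599, 499 and 814 CPM in order of age, with 3 of 8 markers rising over age, and their part in the level of Cox4i2 was not tested. Cox8b and Cox6b2, at medians of 1.64 and 3.69 CPM at 2 months, were not called in any contrast between ages.

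In complex V, all 5 members of the F1 head, the catalytic part in the matrix, were lower at 18 than at 12 months, with 0 of 3 in the c-ring, 2 of 4 in the other membrane subunits (Atp5j2 and Atp5k) and 2 of 4 in the stalk (Atp5h and Atp5o), of which all but Atp5j2 are named only to complete the counts. Atp5b (chr10:128083273-128090391), the catalytic beta subunit, had medians of 1076 (978 to 1123) CPM at 2, 1126 (936 to 1274) at 6, 975 (872 to 1152) at 12, 691 (567 to 898) at 18 and 867 (797 to 960.3) at 24 months. Its 18-month libraries lay below those of 2 months, and so did those of 24 months, while 18 and 12 months overlapped. Its slope was -0.46 ± 0.11 (SE, adjusted p = 0.00834), the steepest of the 9 that were called, and its step from 12 to 18 months -0.47 ± 0.10 (SE, adjusted p = 0.00348). Atp5a1, the alpha subunit that alternates with beta, had medians of 659 (561 to 704) CPM at 2, 634 (540.5 to 685) at 6, 574 (545 to 631) at 12, 446 (350.3 to 533) at 18 and 550.1 (506 to 637) at 24 months. The 18-month libraries lay below all others of 2, 6 and 12 months. It fell over age with a log2 change of -0.34 ± 0.10 (SE, adjusted p = 0.0229) and from 2 to 18 months with a log2 change of -0.56 ± 0.11 (SE, adjusted p = 0.000950).

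The small F1 subunits Atp5d and Atp5e had larger log2 changes in that step than the alpha and beta subunits. Atp5e (chr2:174461072-174464105), the epsilon subunit, whose promoter is printed above, had medians of 71.0 (61.7 to 103) CPM at 2, 114 (76.8 to 223) at 6, 111 (73.0 to 188) at 12, 49.7 (35.0 to 80.2) at 18 and 74.9 (65.0 to 107) at 24 months. The 6- and 12-month libraries spread widely, and the 18-month libraries reached into the lower part of their range. It fell from 12 to 18 months with a log2 change of -1.14 ± 0.24 (SE, adjusted p = 0.00246), the largest change of any member called in that step. Atp5d, the delta subunit, fell with a log2 change of -0.59 ± 0.15 (SE, adjusted p = 0.00922) in that step and with a log2 change of -0.65 ± 0.18 (SE, adjusted p = 0.0169) from 2 to 18 months. In the membrane part, Atp5j2, subunit f, fell with a log2 change of -0.79 ± 0.17 (SE, adjusted p = 0.00264) with no overlap of the libraries. Atp5j, coupling factor 6 of the stalk, was not called, with medians of 377 CPM at 12 and 316 CPM at 18 months.

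The c-ring, which turns with the proton flow, is encoded by 3 genes for the same mature protein. Per kb of transcript, Atp5g3 had 222 CPM, Atp5g1 1.35 and Atp5g2 1.74. The transcripts used had 714, 4660 and 441 bp. Before division by length the mean levels were 159, 6.30 and 0.767 CPM, so the order of the last 2 depends on the length used. Atp5g3 had medians of 155 (136 to 170.0) CPM at 2, 185 (123 to 266) at 6, 170.5 (124 to 280.3) at 12, 105 (84.1 to 197) at 18 and 153 (135 to 161) at 24 months. The highest 18-month library lay above the whole range of 2 months, and Atp5g3 was not called in any contrast between ages. The counts of Atp5g2 are uncertain, since 0% of its 50-base windows are unique in the transcript set. The members with the next lowest shares of unique windows were Atp5l (15.2%), Cox7c (47.0%), Atp5h (49.5%), Atp5o (49.7%), Uqcrb (56.6%) and Ndufs5 (58.8%), named here for this property. Of the 51 tested members with at least 90% unique windows, 33 were lower at 18 than at 12 months.

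**Figure D3:**
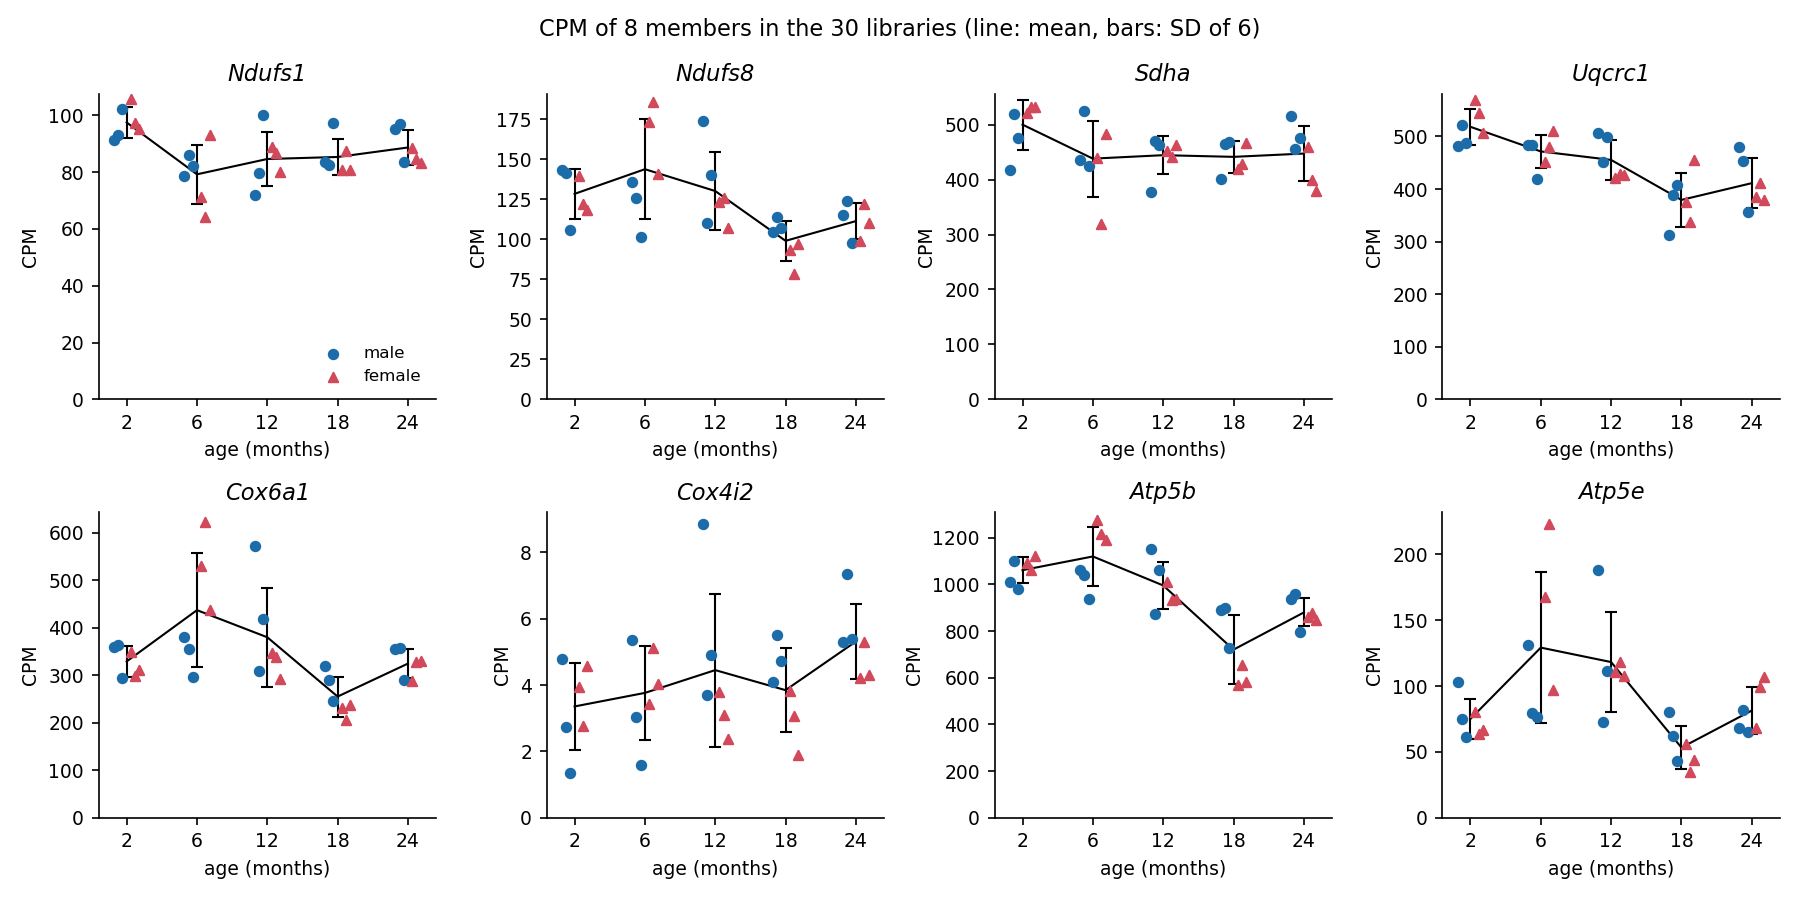
Level in CPM (vertical axes, each from 0) by age in months for Ndufs1, Ndufs8, Sdha, Uqcrc1, Cox6a1, Cox4i2, Atp5b and Atp5e. Points are libraries, circles for males and triangles for females, and the line and bars give the mean and SD of 6. Atp5b and Uqcrc1 lie below their 2-month range at 18 months, Ndufs1 and Sdha have their highest mean at 2 months, and Cox4i2 at 24 months.

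Between the sexes, edgeR called 0 members (0 at an unadjusted p under 0.05, background 0.101%) and 0 for a sex difference in the slope (2 at an unadjusted p under 0.05, background 0.0%). The steps between ages were then compared between sexes in a fit with 1 mean for each sex and age, chosen after the data were seen, with 3 libraries a group. From 2 to 6 months, 42 members rose in females (background 7.93%) and 1, Ndufs1, fell (background 11.2%), with a median change of 0.54, while in males 0 were called (background 0.404% higher and 0.19% lower, with 1 at an unadjusted p under 0.05) and the median was 0.00. The difference between the sexes itself was called for 1 member, Ndufs4 (background 0.392%), named after its value was seen, and for 42 at an unadjusted p under 0.05. From 6 to 12 months, 15 members fell in females (background 5.72%) and 0 in males (background 0.249%), and the difference between the sexes was called for 17 (background 3.32%), with a median of -0.72. Those 17 were 10 members of complex I, 0 of complex II, 1 of complex III, 5 of complex IV and 1 of complex V. The number depended on single libraries: for 6-month libraries 1 to 6 left out in turn it was 30, 4, 3, 8, 3 and 32, and for 12-month libraries 1, 2, 4, 5 and 6 it was 2, 60, 8, 6 and 3. It was 3 with the correction for gene length and 0 with the share of longer genes as a covariate. From 12 to 18 months, where 24 members fell in females (background 4.83%) and 6 in males (background 1.1%), the difference was called for 0 (background 0.0%, with 3 at an unadjusted p under 0.05), and the medians were -0.47 and -0.44.

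Gene length moved with these contrasts. Many nuclear respiratory subunits are short proteins on short transcripts, though some are longer, such as Sdha with a transcript of 2900 bp. The share of counts on genes longer than the median exon length of 3935 bp differed between libraries. This share averaged 53.8%, 49.7%, 52.5%, 57.8% and 53.9% in order of age. At 6 months it was 45.9% ± 1.67 (SD, n = 3) in females and 53.4% ± 2.28 in males. The 4 libraries with the highest mean level of the members had the 4 lowest shares of longer genes. Library 5 of 18 months, with the lowest mean level of members, had the highest share, 61.0%.

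**Figure D4:**
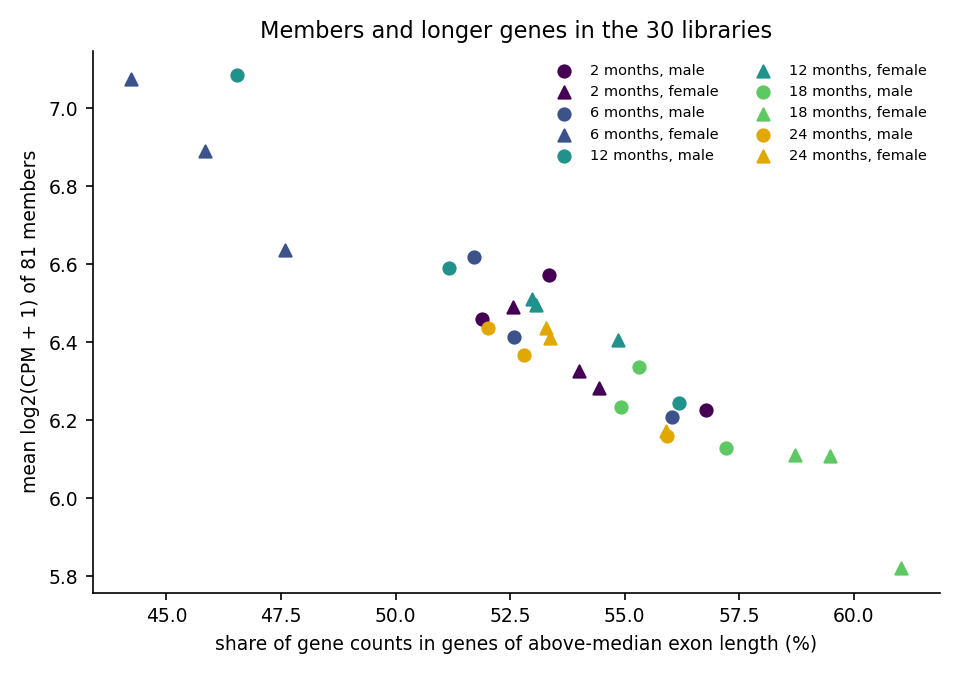
Mean log2(CPM + 1) of the tested members in each library (vertical axis) against the percentage of its counts on genes longer than the median exon length (horizontal axis), by age and sex. The libraries with the highest member levels lie at the left, at 44.2% to 47.6%, and the lowest lies at the right, at 61.0%.

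Within the members, shorter transcripts had larger changes from 2 to 6 and from 12 to 18 months. From 6 to 12 and from 18 to 24 months, the Pearson correlation of log10 transcript length with the log2 change was -0.04 and -0.21. Across the 81 members, the correlation of log10 transcript length with the log2 change was -0.61 (Pearson) from 2 to 6 months, -0.70 from 2 to 12 months, 0.41 from 12 to 18 months and 0.01 for the slope. With the summed exon length of the gene in place of transcript length it was -0.26, -0.39, 0.33 and 0.02. Members are not independent replicates, and they share the same libraries and their composition, so these values are descriptions. Over the 16800 tested genes with a length, the values with transcript length were -0.21, -0.14, 0.15 and 0.07. The 27 shortest members (360 to 610 bp), the 27 of middle length (618 to 1046 bp) and the 27 longest (1076 to 4660 bp) had median changes of 0.43, 0.34 and 0.08 from 2 to 6 months and of -0.58, -0.50 and -0.37 from 12 to 18 months. In the step from 12 to 18 months 15, 17 and 17 of them were called lower, so the calls were spread over all lengths. Of the 9 falling slopes, 0 were among the shortest, 2 among the middle and 7 among the longest.

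**Figure D5:**
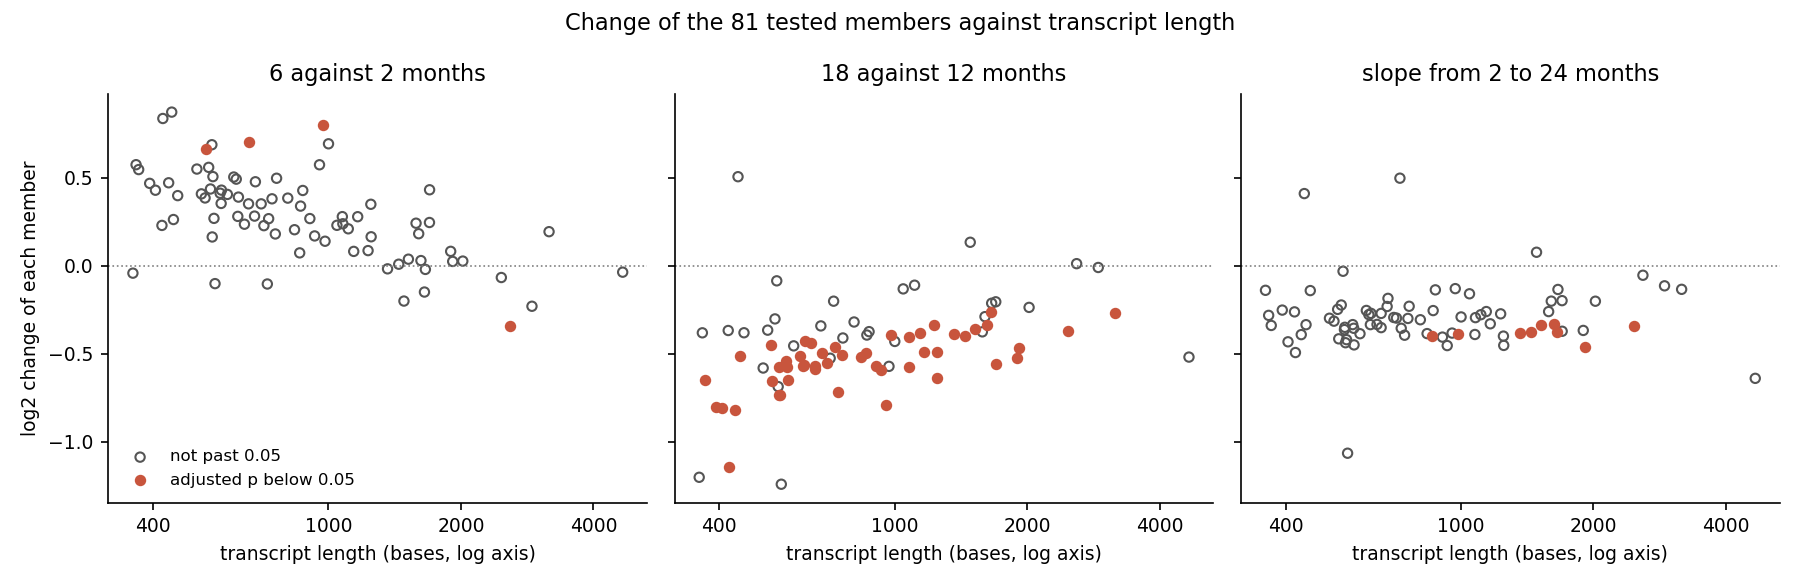
Log2 change of each of the 81 tested members (points) against transcript length in bases (horizontal axis, log scale), from 2 to 6 months, from 12 to 18 months and over the slope. Filled points passed an adjusted p of 0.05. Shorter members lie higher from 2 to 6 months and lower from 12 to 18 months, while the slope shows little relation to length, and the filled points of the slope are at the longer end.

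From 12 to 18 months the median change of the members was farther below 0 than that of all genes of like exon length. Exon length here sums all exons of a gene and can far exceed the transcript. Ndufb7, for example, had 4522 bp of exons and a transcript of 623 bp. For exon lengths below 1000, 1000 to 2000, 2000 to 4000 and from 4000 bp, the median change over all genes was -0.09, -0.18, -0.07 and 0.15, and over the members -0.57, -0.49, -0.37 and -0.39, with 20, 31, 20 and 10 members. From 2 to 6 months the 2 sets were closer, with 0.34, 0.21, 0.03 and -0.16 over all genes and 0.40, 0.35, 0.21 and 0.10 over members. With a correction of each library for gene length, 45 members were called lower from 12 to 18 months and the count for falling slopes became 30. This correction used the summed exon length. From 2 to 6 and from 12 to 18 months the members' changes were less closely related to that length than to transcript length. What relation to transcript length the correction left was not tested. With the share of longer genes as a covariate, the step from 12 to 18 months had 0 lower members (median -0.08) and the slope 6 falling and 1 rising, Cox4i2 at 0.82. That share differs between the ages, so age and the share cannot be fully told apart in this fit. The share of reads outside genes also moved with age, at 5.06%, 5.69%, 6.03%, 10.4% and 7.19% in order of age, and with it as a covariate there were 0 lower members in that step and 0 falling slopes.

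The libraries were sequenced as 24 paired-end and 6 single-end runs of 50 bases on different instruments, and the sources do not say which library was which, so the part of the run type was not tested. Erythroid markers, from cells that lose their mitochondria as they mature, had summed median levels of 602, 1340, 947, 359 and 800 CPM in order of age, highest at 6 and lowest at 18 months like the members, and 4 of 5 were lower at 18 than at 12 months. Choroid plexus markers had their highest median at 2 months, with medians of 2947, 997, 1331, 954 and 1217 CPM in order of age. The highest single libraries, however, were at 12 and 6 months. The highest library of each age held 4249, 5343, 6941, 1434 and 2261 CPM in the same order. Their part in the members' levels was not tested.

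Among the 13 subunits encoded by mitochondrial DNA, 7 were tested, and all 7 had their lowest mean at 2 months, unlike the nuclear members. edgeR called 0 in either direction for the slope (2 rising and 0 falling at an unadjusted p under 0.05), with a median of 0.27, and 0 from 12 to 18 months, with a median of -0.08. The mean of mt-Cytb, the mitochondrial subunit of complex III, named for its place in that complex, was 1712 ± 323 CPM (SD, n = 6) at 2 months, 2477 ± 525 at 12 months and 2348 ± 651 at 18 months. From 2 to 6 months mt-Nd2, of complex I, rose with a log2 change of 0.85 ± 0.24 (SE, adjusted p = 0.0313). mt-Nd3, mt-Nd4l, mt-Atp6 and mt-Atp8 were listed at 0 in every library and mt-Co2 and mt-Co3 nearly so. Reads that map to several places were counted for no gene, so these zeros cannot be read as absence of the transcripts.

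In other mitochondrial lists the counts ran from shares near that of all genes to 10 of 22. From 12 to 18 months 3 of 15 complex I assembly factors and 6 of 30 assembly factors of complexes II to V were lower, with medians of -0.16 and -0.22, where 6.73% of all genes were lower. The latter included Cox14 (-0.76) and Coa6 (-0.64), which act in complex IV assembly, and Uqcc2 (-0.66) and Uqcc3 (-0.59), which act in complex III assembly. Protein import had 10 of 22 genes lower, among them Timm8b (-0.79), Tomm5 (-0.71) and Timm13 (-0.67). Of 20 carriers and linked genes 2 were lower, of 20 tricarboxylic acid cycle genes 2, and of 11 genes of mitochondrial DNA upkeep 1, shares near that of all genes. Glycolysis had 0 of 15 lower (2 at an unadjusted p under 0.05), and over the slope Ldhb (-0.62) and Eno1 (-0.38) fell. In the slope the cycle enzymes Idh3a (-0.31) and Mdh2 (-0.30) fell, Pdk1, an inhibitor of pyruvate dehydrogenase, rose (0.81), and Chchd10, a protein of the intermembrane space, fell (-1.37).

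Of 17 regulators of mitochondrial genes, Tfam, a factor of mitochondrial transcription, was lower at 18 than at 12 months (-0.51 ± 0.16, adjusted p = 0.0349). Gabpa, whose protein binds 1 of the patterns searched, was lower at 6 than at 2 months (-1.17 ± 0.28, adjusted p = 0.00981), where the members' median change was 0.28. Hif1a, a regulator of the response to low oxygen, was also lower at 6 than at 2 months (-0.96 ± 0.21, adjusted p = 0.00630), and its relative Epas1 rose over age (0.45 ± 0.13, adjusted p = 0.0252). Split by promoter pattern, members lower from 12 to 18 months were 11 of 17 with and 29 of 48 without the NRF1 pattern, 13 of 16 with and 27 of 49 without that of GABPA, 12 of 16 with and 28 of 49 without that of YY1, and 1 of 3 with that of ERRA. These counts are descriptions, and the differences between them were not tested.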

How the data were processed

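RNA was measured in 30 libraries of brain endothelial cells by RNA-seq, with cDNA from a kit that does not mark strand. The values are raw read counts per gene, deposited by the authors. Reads were checked with FastQC 0.11.4 and MultiQC, aligned with STAR 2.5.2b to GRCm38 (mm10), and HTSeq is also listed, per the submitters' processing notes. Lines naming no gene (unmapped, several places, outside genes, several genes) held 21.5% to 29.2% of a library and were left out. Depth was 24140980 to 50464366 counts, where 3 counts correspond to 0.0594 to 0.124 CPM.

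Ages came from the labels. Counts were tested with edgeR 4.0.16 in R 4.3.3: filterByExpr by age (minimum count 10, total 15), TMM scaling, robust quasi-likelihood fits with sex as covariate, and Benjamini-Hochberg adjustment over 16844 genes at 0.05. Slopes are log2 changes over 22 months. The departure test compared a fit with 5 age means with the line. Alternatives were DESeq2 1.42.0, limma-voom (limma 3.58.1), other scalings and filters, a smooth on exon length, covariates, and leaving out libraries. The steps' alternatives, unique windows and the sex difference in each contrast were chosen after seeing the data. So were each sex alone and the covariate of reads outside genes in the contrasts between ages. For the slope these were planned. The scripts were tested on simulated data.

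The members and lists were chosen with earlier results of these data known. Members are named if called in the slope or among the 3 highest per kb of transcript in a complex. Others hold redox centres or rotor parts, belong to an isoform pair, or are among the 8 smallest p of another test. Up to 4 called genes with the largest change are named per other list. Transcript lengths and coordinates are from GENCODE on GRCm38, and promoters from RefSeq. Reads of both strands were counted, so overlapping genes on opposite strands cannot be told apart. Results of some genes are not reported here.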

Additional observations from a re-analysis of the deposited data

Results flagged for a closer look

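Within the 6 libraries of an age, a named member or a complex score was looked at again where its highest or lowest library stood far from the rest. This was so for 21 of 215 groups of libraries, and chance alone gives about 1 in 20 independent groups. The groups were not independent: every value of 12 months given here belongs to 12-month library 1 (male). At 12 months most of them had 1 high library: Atp5g3 at 280.3 CPM, Atp5j at 555, Cox4i1 at 620.4, Cox6b1 at 418, Cox8a at 278, Ndufa3 at 253 and Ndufa8 at 262. Further high values of that age were 261 CPM for Ndufb7, 302 for Ndufs7, 326 for Sdhb, 242 for Sdhd, 228 for Uqcr11 and 9.59 for Cox8b. Cox8a, for example, had its next library at 172 CPM. Sdha had a low library at 377 CPM.

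At 6 months the score of complex II was low in 1 library, at 7.67, and so was Sdhd, at 157 CPM, while Atp5g2 and Cox8b each had a high library, at 1.26 and 3.86 CPM. High single libraries were also seen for Cox8b at 18 months (3.83 CPM), and at 24 months for Cox4i2 (7.35 CPM) and Cox7a1 (6.42 CPM).

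The change from 6 to 12 months differed between the sexes in 7 named members, by edgeR's test of the difference with 3 libraries a group. The female minus male difference in log2 change was -0.86 for Ndufa3, -0.67 for Ndufs7, -0.72 for Ndufs8, -1.03 for Cox6a1, -2.80 for Cox6b2, -1.04 for Cox8a and -0.95 for Atp5d. Cox6a1, for example, had a log2 change of -0.70 in females, and of 0.33 in males. At 6 months the share of counts on longer genes was also lower in females than in males, and its part in these differences was tested only as the alternatives for gene length given below.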

How the results depend on the processing

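The 49 members lower at 18 than at 12 months became 0 with the share of longer genes or of reads outside genes as a covariate. Their number was 0 in males alone, and ranged from 16 to 63 with 1 library left out. The count in females alone, and the shares of all genes lower in each sex, are given above with this step. The 9 falling slopes became 16 with DESeq2, 30 with the length correction, 0 with the covariate of reads outside genes, 17, 2 and 5 without the 2-, 18- and 6-month libraries, 0 in males and 2 in females (7 to 15 with 1 library left out). The 0 rising slopes became 1 without the filter, with the longer-gene covariate, and without the 4 libraries low in longer genes. The 39 departures from a line became 25 with the length correction and 11 without the 4 libraries.

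From 2 to 6 months, the 3 higher members became 1 with the length correction, 0 with the longer-gene covariate, without the 4 libraries and in males, and 53 in females (0 to 23 with 1 library left out), and the 1 lower became 0, 5, 0, 0 and 2 in the same order (0 to 1). From 2 to 18 months the 10 lower members became 30 with the length correction, 35 without the 4 libraries, 0 with reads outside genes, 0 in males and 27 in females (4 to 19), and 3 were higher with the longer-gene covariate. From 2 to 24 months the 1 lower became 8 with the length correction, 6 with the longer-gene covariate, 2 without the 4 libraries, 0 with reads outside genes, 0 in males and 4 in females (0 to 1). From 6 to 12 months 38 were lower in females and 2 higher with the longer-gene covariate. From 18 to 24 months 2 were lower with that covariate, and 5 higher without the 4 libraries and 17 in females (0 to 1).

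The median slope of -0.32 became -0.045 with reads outside genes, -0.046 with longer genes and -0.61 without the 2-month libraries (-0.37 to -0.26 with 1 library left out). The median from 2 to 6 months, 0.28, turned to -0.12 with the longer-gene covariate and -0.060 without the 4 libraries, and was 0.025 in males and 0.54 in females (0.17 to 0.36). That from 12 to 18 months, -0.47, became -0.079 and -0.20 with the covariates (-0.54 to -0.33), and that from 2 to 24 months, -0.08, turned to 0.089 with reads outside genes (-0.11 to -0.01). Of the sex differences, the 17 from 6 to 12 months became 3 with the length correction and 0 with the longer-gene covariate (2 to 60), and the 1 from 2 to 6 months became 0 with that covariate (0 to 8). Among single members, the step from 12 to 18 months turned to 0.0077 for Ndufs8 with the longer-gene covariate and to 0.013 for Uqcrc1 with reads outside genes, and the change from 2 to 18 months of Ndufa8 to 0.00019 with the latter. The 4 libraries include all female libraries of 6 months, so fits without them had only males at that age. Causes of these shifts were not tested. Fits of part of the libraries also had fewer libraries, and the part of that smaller number was not tested either. No paired analysis was possible because the labels give no replicate numbers that pair libraries across ages. Depth limits the isoforms at low level most, as for Cox8b, whose libraries held as few as 2 counts.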
